A study of Mus musculus with 8 samples.

Results

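The genes described here are 9 markers of leukocytes, the white blood cells that live in or pass through a tissue. Ptprc is carried by leukocytes at large, Csf1r, Cd68, Cd163, Mrc1 and Lyz2 mark macrophages and other myeloid cells, Itgam and Itgax are the α chains of leukocyte integrins, and Cd207 marks Langerhans cells. The members were chosen by symbol, as the rows of the deposited table whose gene name equals one of these 9, and all 9 were found among 23420 named genes. The rule uses no measured value.

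Limbal rims, the ring where the cornea meets the sclera, and corneal buttons, the cornea inside that ring, were dissected from wild type C57BL/6J mice of 8 weeks, and each tissue was pooled before its RNA was extracted. Total RNA libraries were sequenced, and the table compares both tissues. The labels list 4 numbered samples per tissue, but the table is built from 1 cornea library and 1 limbus library. Hence no spread between replicates could be measured, no p-value is given, and all intervals are 95% intervals that cover counting error only, with PCR copies counted as separate reads. On named genes, 26104317 reads came from the cornea library and 21182025 from that of the limbus.

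A healthy cornea has no blood vessels, and its resident leukocytes are mainly macrophages and dendritic cells, whose density is known to be greater towards the limbus, where the vessels end. Macrophages depend on the receptor encoded by Csf1r, which binds the growth factors Csf1 and Il34, and they take up debris through scavenger receptors and digest it in lysosomes. Langerhans cells are the antigen-presenting cells of surface epithelia, and conventional dendritic cells carry high levels of the integrin of Itgax.

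The origin of both libraries was checked against markers of the tissues. Krt12 and Aldh3a1 of the corneal epithelium summed to 1715000 normalized corneal and 505000 normalized limbal reads. Of the 6 genes in the corneal epithelium list used below, these 2 were at least 2-fold higher in the cornea. Krt14 (log2 ratio 2.52) and Krt15 (log2 ratio 3.32) of that list were at least 2-fold higher in the limbus. Kera and Lum of the keratocytes summed to 19920 and 9586, a fall made up by Kera, which went from 11720 to 1471. Lum had 8194 and 8115 normalized reads and did not differ beyond counting error. Of the 5 genes in the keratocyte list used below, 2 were at least 2-fold higher in the cornea and 1 in the limbus. Pecam1 and Cdh5 of blood vessels went from 8.71 to 1294 normalized reads, Prox1 and Flt4 of lymphatic vessels from 11.6 to 276, and Krt13, Krt19 and Muc5ac of the conjunctiva from 35760 to 156600, a sum made up by the keratins, since Muc5ac of goblet cells had 1 corneal and 1 limbal read. The β-globin gene went from 12.6 to 74.4, with Hba-a1 at 0 in both. The limbus library therefore held more reads of vessel genes, conjunctival keratins and β-globin, and the part of these tissues and of blood in the values below was not tested. In pooled tissue, fewer cells of a type and less RNA per cell cannot be told apart.

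The factor PU.1, encoded by Spi1, is the ETS family regulator of the myeloid lineage and binds a purine-rich core, GAGGAA. The 250 bases before the annotated start are shown for 3 members as examples of the regulatory sequence of these genes. Mrc1 was chosen for holding the most matches, level with Itgam, Cd68 as the lysosomal marker, and Cd163 for its ratio, the highest of the 9. The sequences are from RefSeq, build GRCm38.p6, chr2:14229164-14229413 on the plus strand for Mrc1, chr11:69666171-69666420 on the minus strand for Cd68 and chr6:124304401-124304650 on the plus strand for Cd163. They are written on the strand of the gene, 5′ to 3′, and capitals mark GAGGAA or, for a match on the other strand, its reverse complement.
Mrc1: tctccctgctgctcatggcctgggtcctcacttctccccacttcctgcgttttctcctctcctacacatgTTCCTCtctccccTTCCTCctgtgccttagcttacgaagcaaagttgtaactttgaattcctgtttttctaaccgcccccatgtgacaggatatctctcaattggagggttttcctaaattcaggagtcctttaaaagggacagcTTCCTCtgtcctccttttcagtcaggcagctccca
Cd68: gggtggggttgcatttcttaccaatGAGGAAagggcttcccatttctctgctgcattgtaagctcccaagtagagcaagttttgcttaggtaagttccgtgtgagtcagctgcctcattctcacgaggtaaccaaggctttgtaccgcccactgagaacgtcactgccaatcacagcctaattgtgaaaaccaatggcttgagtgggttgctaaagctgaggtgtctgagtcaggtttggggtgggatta
Cd163: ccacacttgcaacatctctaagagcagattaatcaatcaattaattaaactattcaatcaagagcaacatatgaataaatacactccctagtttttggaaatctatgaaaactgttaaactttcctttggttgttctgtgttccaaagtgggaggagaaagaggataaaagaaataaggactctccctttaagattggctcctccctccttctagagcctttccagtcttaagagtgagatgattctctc
These stretches held 3 matches for Mrc1, 1 for Cd68 and 0 for Cd163. With the 50 bases after the start included, as in the table of promoters, 5 of the 8 members matched to it held the core. These were Mrc1 and Itgam with 3 matches each, Cd68 with 2, Cd207 with 1 and Ptprc with 1 at one of its starts, whereas Cd163, Itgax and Lyz2 had 0. Of all 32851 promoters of this length, 28.3% held the core, and a match is a run of letters and not a binding site. Spi1, chosen after its values were seen, had 39 corneal and 100 limbal reads.

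Every member had more normalized reads in the limbus than in the cornea. Of the 8 members above 3 reads in each library, 6 were at least 2-fold higher in the limbus, and 0 were 2-fold higher in the cornea. Of 13862 genes with that many reads, 15.5% were at least 2-fold higher in the limbus, while 8.99% were so in the cornea. The interval of the ratio lay above 1 for all 8, whereas 33.2% of all genes were higher in the limbus and 40.6% higher in the cornea by the same measure. Over all genes, the median log2 ratio was -0.05. Cd207, with 2 reads in the cornea, did not pass the limit and stands outside these counts.

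**Figure D1:**
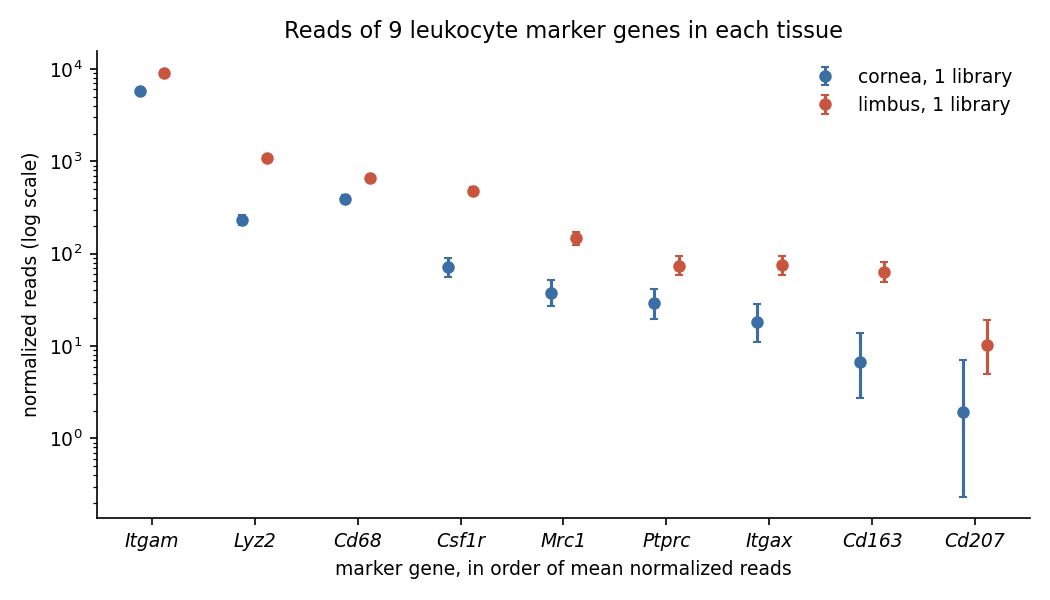
Normalized reads of the 9 marker genes (log axis) in the cornea library and the limbus library, with bars for the exact Poisson 95% interval of the reads. The limbus point lies above the cornea point for every gene, and the genes span from 1.94 normalized reads of Cd207 in the cornea to 9090 of Itgam in the limbus.

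Ptprc encodes CD45, the receptor phosphatase on the surface of nearly all leukocytes, and lies on chromosome 1 from 138062861 to 138175708 (GRCm38, minus strand). It had 30 corneal and 72 limbal reads, or 29.0 and 74.4 after normalization. This made it 2.56-fold higher in the limbus, with an interval from 1.65 to 4.07. The ratio was above those of 87.8% of all genes. An unclassified transcript, A130071D04Rik, overlaps it on the same strand.

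Csf1r, the receptor for colony stimulating factor 1 that marks monocytes and macrophages, lies on chromosome 18 from 61100598 to 61132149. It had 74 corneal and 465 limbal reads, or 71.6 and 481 after normalization. The limbus was 6.72-fold higher, with an interval from 5.25 to 8.70, above 95.5% of all genes. The end of Csf1r overlaps Hmgxb3 on the opposite strand, which had 644 and 590 reads. Since the sources used here do not state whether counting used the strand, reads of that stretch could have been counted for either gene.

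The growth factors that bind this receptor were higher in the limbus too. Csf1 had 98 corneal and 407 limbal reads, 4.44-fold higher in the limbus (95% CI 3.55 to 5.59). Il34, the second ligand and a factor that Langerhans cells depend on, had 28 and 205 reads, a ratio of 7.82 (95% CI 5.25 to 12.1). The ratio of Csf1r was 1.51 times that of Csf1 (95% CI 1.07 to 2.14), and against Il34 the quotient was 0.858 with an interval from 0.518 to 1.39, so that no difference between receptor and this ligand was detectable at this depth.

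Cd163 and Mrc1 encode receptors of tissue-resident macrophages. Cd163 takes up complexes of haptoglobin and hemoglobin and lies on chromosome 6 from 124304656 to 124330527. It had 7 corneal and 62 limbal reads, or 6.77 and 64.1 after normalization, a ratio of 9.47 with a wide interval from 4.33 to 24.5. Mrc1, the mannose receptor, lies on chromosome 2 from 14229392 to 14332057 and had 39 and 142 reads, or 37.7 and 147 after normalization. Its ratio was 3.89 (95% CI 2.71 to 5.70). Both intervals lay above 2, and they overlap each other. Mrc1 also stood in the list of lymphatic endothelium used below, and the part of lymphatic vessels in its ratio was not tested. Mir511, inside Mrc1, was listed at 0 in both libraries.

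Cd68 and Lyz2 encode proteins of the lysosome and the secretory granule. Cd68, a lysosomal membrane glycoprotein on chromosome 11 from 69664213 to 69666153, had 402 corneal and 644 limbal reads, or 389 and 666 after normalization. It was 1.71-fold higher in the limbus (95% CI 1.51 to 1.94), which is larger than counting error but under 2-fold. Lyz2, the lysozyme of macrophages and neutrophils, lies on chromosome 10 from 117277331 to 117282321 and had 241 and 1045 reads, or 233 and 1080 after normalization. Its ratio was 4.63 (95% CI 4.02 to 5.35).

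Lyz1, the neighboring lysozyme gene best known from Paneth cells of the gut, had 0 corneal and 10 limbal reads. Set against a floor of 3 reads in place of 0, it was 3.56-fold higher in the limbus, counting error of the limbal reads aside. The longest transcripts of Lyz2 and Lyz1 are 96.0% identical over 1262 aligned bases, and 74 of the 1242 windows of 75 bases in Lyz2, or 5.96%, occur unchanged in Lyz1. Reads from such windows could be counted for either gene.

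Itgax encodes CD11c, the integrin chain used to mark dendritic cells, on chromosome 7 from 128129547 to 128150657. It had 19 corneal and 73 limbal reads, or 18.4 and 75.5 after normalization, a ratio of 4.11 (95% CI 2.45 to 7.20). Of its 75-base windows, 240 or 5.01% occur in Itgad, which was listed at 0 in both libraries. Cd207 encodes langerin, the lectin of the Birbeck granules of Langerhans cells, and lies on chromosome 6 from 83671215 to 83677857. It had 2 corneal and 10 limbal reads, a ratio of 5.34 with an interval from 1.14 to 50.2. At this depth the ratio of Cd207 is hardly bounded from above.

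Itgam encodes CD11b, the integrin chain of macrophages, monocytes and neutrophils, on chromosome 7 from 128062640 to 128118491. It had 6003 corneal and 8793 limbal reads, or 5807 and 9090 after normalization, and was 1.57-fold higher in the limbus (95% CI 1.52 to 1.62). These reads made up 88.1% of the reads of all 9 members in the cornea and 77.8% in the limbus. For each read of Ptprc there were 200.1 reads of Itgam in the cornea and 122 in the limbus.

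CD11b and CD11c reach the cell surface only as pairs with the β2 chain, encoded by Itgb2, which is itself a leukocyte gene. Itgb2 had 7 corneal and 59 limbal reads, a ratio of 9.01 (95% CI 4.11 to 23.4). There were 858 reads of Itgam for each read of Itgb2 in the cornea and 149 in the limbus, while the same quotient for Itgax was 2.71 and 1.24. The ratio of Itgam between the tissues was 0.174 times that of Itgb2 (95% CI 0.0669 to 0.381), a difference larger than counting error. For Itgax the quotient was 0.458 with an interval from 0.152 to 1.23. The reads given to Itgam thus did not follow those of its partner chain, and their number went against its label as a leukocyte marker. Its ratio between the tissues did not differ beyond counting error from that of Cd68, which was 1.09 times as high (95% CI 0.960 to 1.25).

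The annotation of this locus bears on what was counted. A second protein-coding gene model, Gm49368, starts within Itgam on the same strand, extends past its end to 128128160 and was not in the table. It shares 3450 exon bases with Itgam and holds 65.2% of the 75-base windows of Itgam. An exon of Gm49368 contains Gm45700, a processed pseudogene from 128126835 to 128127181, which begins 8344 bases after the end of Itgam and stops 2366 bases before Itgax. Gm45700 is 92.8% identical to the transcript of the ribosomal protein gene Rpl35, with 322 of 347 bases the same. The part of these features in the reads given to Itgam was not tested.

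**Figure D2:**
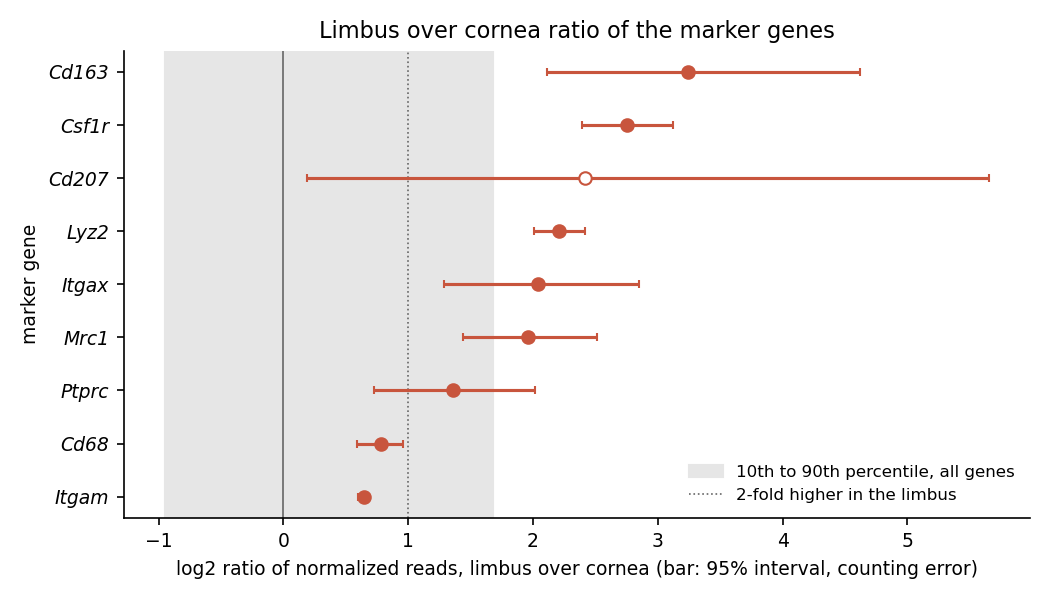
Log2 ratio of normalized reads, limbus over cornea, for the 9 marker genes, with 95% intervals for counting error. The grey band spans the 10th to the 90th percentile of all genes (-0.95 to 1.68), the dotted line marks 2-fold, and the open circle marks Cd207, which had 2 reads in the cornea. From Cd163 at 3.24 the ratios go down to Itgam at 0.65, and all lie to the right of 0.

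By the ratio between the tissues, the order of the members was Cd163, Csf1r, Cd207, Lyz2, Itgax, Mrc1, Ptprc, Cd68 and Itgam. None of the 8 pairs of neighbors in this order differed beyond counting error. Each of the other 8 members was also set against Ptprc, which does not depend on how the libraries were scaled, and these 8 intervals were not widened for their number. The ratio of Cd163 was 3.67 times that of Ptprc (95% CI 1.45 to 10.6), that of Csf1r 2.61 times (95% CI 1.54 to 4.38) and that of Lyz2 1.81 times (95% CI 1.11 to 2.87). These 3 genes thus differed more between the tissues than Ptprc did, beyond counting error. Itgam differed less, at 0.610 times (95% CI 0.384 to 0.948). For Cd207, Itgax, Mrc1 and Cd68 the interval included 1, with quotients of 2.07, 1.60, 1.51 and 0.668.

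Levels of different genes were compared per kilobase of the longest coding transcript. In the limbus Itgam was highest with 1941 normalized reads per kilobase (95% CI 1901 to 1982), followed by Lyz2 with 821, Cd68 with 541 and Csf1r with 102. Their intervals did not overlap. Mrc1 followed with 27.3, Itgax with 18.7, Ptprc with 14.7, Cd163 with 14.4 and Cd207 with 6.79, and in this stretch each interval overlapped the next.

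In the cornea the levels per kilobase were 1240 for Itgam, 316 for Cd68, 177 for Lyz2 and 15.2 for Csf1r, again without overlap. The lower members went from 7.02 for Mrc1 through 5.72 for Ptprc, 4.54 for Itgax and 1.52 for Cd163 to 1.27 for Cd207, each overlapping its neighbor. Lyz2 and Cd68 thus changed places between the tissues. Set against Ptprc within the limbus, Lyz2 was 56.0 times, Cd68 36.9 times and Csf1r 6.97 times as high, and Itgam 132 times.

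The length chosen matters for Ptprc. Over all its annotated exon bases, an alternative chosen after seeing the data, its level in the limbus was 4.06 normalized reads per kilobase in place of 14.7, inside the interval of Cd207 from 3.26 to 12.5.

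**Figure D3:**
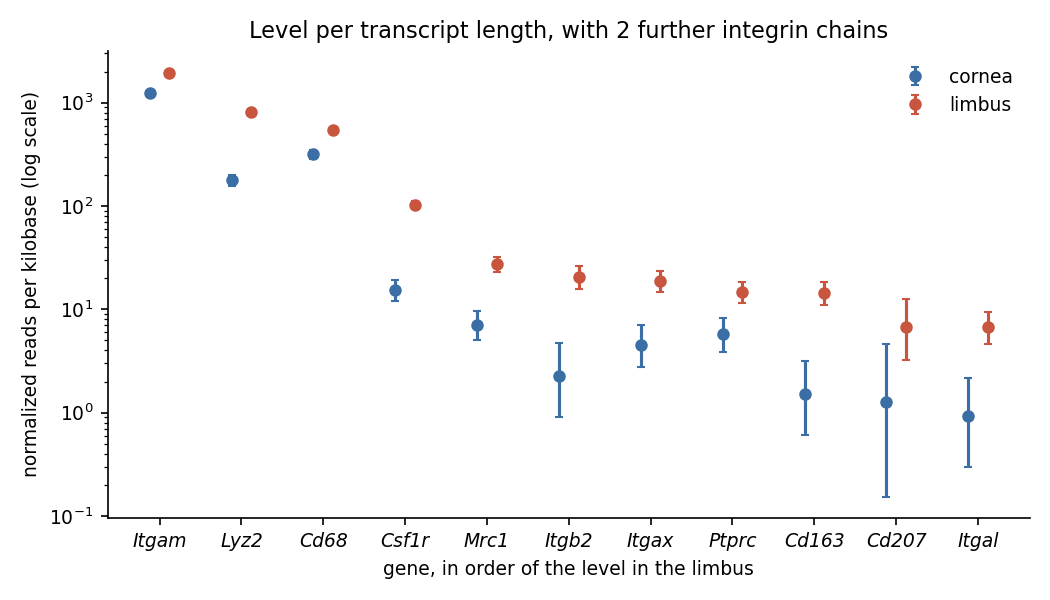
Normalized reads per kilobase of the longest coding transcript (log axis) in the cornea and the limbus, for the 9 marker genes and for the integrin chains Itgb2 and Itgal, with exact Poisson 95% intervals. Itgam stands at 1240 in the cornea and 1941 in the limbus, while Itgb2, its partner chain, stands at 2.28 and 20.5.

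The other genes of the same cell types were taken from 20 lists, in which a gene could stand more than once and the members themselves were left out. Of the 19 genes in the pan-leukocyte list, 16 had more than 3 reads in both libraries. Of these, 14 were at least 2-fold higher in the limbus, against 0 in the cornea, with a median log2 ratio of 2.88, beside -0.05 over all genes. Arhgdib, a GTPase regulator of blood cells, had the most reads, 828 corneal and 5025 limbal, for a log2 ratio of 2.70 (95% CI 2.59 to 2.80). Laptm5, a lysosomal protein of leukocytes, had 50 and 368 reads (log2 ratio 2.98), and Lcp1, the plastin of leukocytes, had 72 and 321 (log2 ratio 2.25). Ptpn6, a phosphatase that epithelial cells also express, had 803 and 766 reads and did not differ beyond counting error (log2 ratio 0.03, 95% CI -0.12 to 0.17).

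Among the 22 further genes in the macrophage list, 18 had more than 3 reads in both libraries, and 14 of these were at least 2-fold higher in the limbus, against 0 in the cornea. Their median log2 ratio was 2.31. C1qb, a chain of the complement protein C1q, had 88 corneal and 623 limbal reads, a log2 ratio of 2.92 (95% CI 2.60 to 3.26). Folr2, a folate receptor of resident macrophages, had 83 and 609 reads (log2 ratio 2.97, 95% CI 2.64 to 3.32). Cbr2, a carbonyl reductase, had by far the most reads of the list, 11540 and 38805, with a log2 ratio of 1.85. The cell types that the reads of Cbr2, and those of Arhgdib above, came from were not tested.

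The monocyte list had 6 of 9 genes above the limit, 5 of them at least 2-fold higher in the limbus, with a median log2 ratio of 2.48. Cx3cr1, the fractalkine receptor, had 24 corneal and 151 limbal reads (log2 ratio 2.75), Nr4a1 had 8 and 118 (log2 ratio 3.98), and Ace had 4 and 215 (log2 ratio 5.84). Ace, the angiotensin converting enzyme, is also known from endothelium, whose markers moved the same way. Plac8 had 12105 corneal and 7530 limbal reads, and its log2 ratio of -0.59 (95% CI -0.63 to -0.55) was on the corneal side. Which cell types its reads came from was not tested.

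Most genes of dendritic cells were near the limit of detection. Of the 15 in the list beside Itgax and Cd207, 9 had 3 reads or fewer in a library. Of the other 6, 3 were at least 2-fold higher in the limbus, against 1 in the cornea, with a median log2 ratio of 1.07. All 9 genes under the limit had more limbal than corneal reads. The median was 1.45 with a filter on a mean of at least 10 normalized reads and 1.57 with no filter on low reads. Zbtb46, the transcription factor of conventional dendritic cells, had 3 corneal and 16 limbal reads, Flt3 had 0 and 9, and Ccr7, the receptor that guides these cells to lymph nodes, had 0 and 7. Irf8 had 32 and 82 reads (log2 ratio 1.45, 95% CI 0.85 to 2.09), and Cd83 had 20 and 30, with an interval that included 0. Cd80 was higher in the cornea, with 38 and 8 reads (log2 ratio -2.15, 95% CI -3.46 to -1.03). Fscn1, an actin-bundling protein that is not restricted to dendritic cells, had 437 and 217 reads (log2 ratio -0.91).

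**Figure D4:**
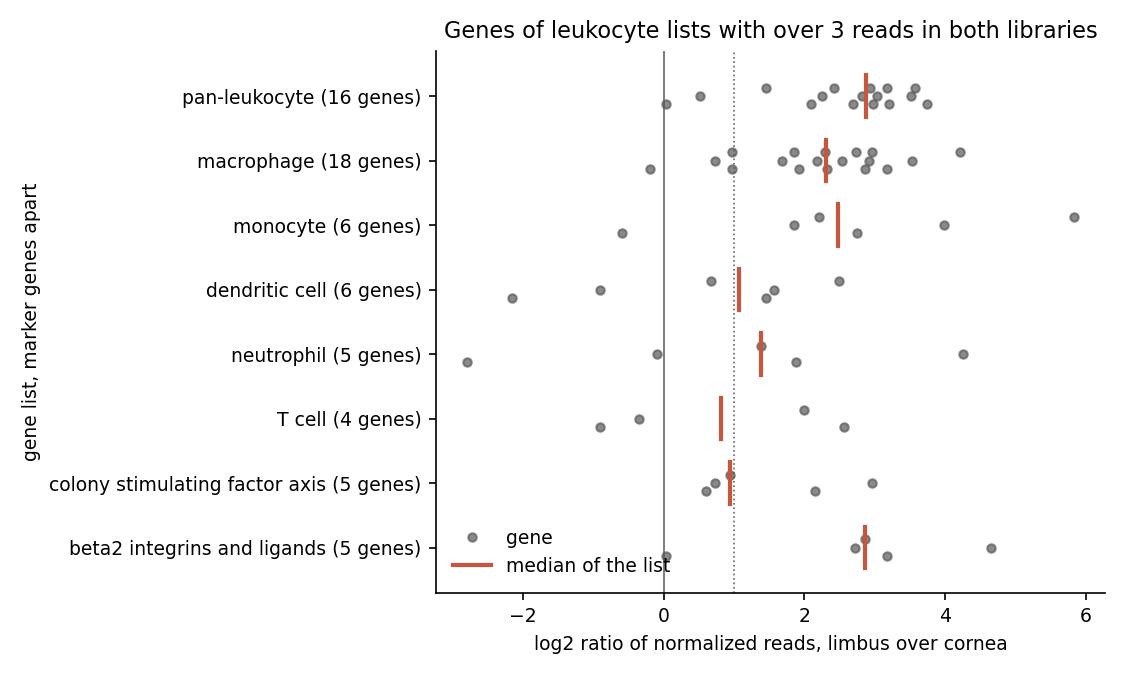
Log2 ratio of normalized reads, limbus over cornea, for the genes of 8 lists above 3 reads in each library (grey points) and the median of each list (red line), with a solid line at 0 and a dotted line at 2-fold. The medians are 2.88 for the pan-leukocyte list, 2.31 for the macrophage list and 1.07 for the dendritic cell list. With no filter on low reads they are 2.95, 2.32 and 1.57.

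Most lymphocyte genes had few reads in both libraries. Of the 16 T cell genes, 12 were at or under 3 reads in a library. Cd3d had 1 corneal and 0 limbal reads, Cd3e had 1 and 4, and Cd3g had 0 and 3. Of the other 4 genes, Lck (7 and 26 reads) and Lat (4 and 22 reads) were at least 2-fold higher in the limbus. Cd5 (49 and 36 reads, log2 ratio -0.35, 95% CI -1.01 to 0.30), the gene of the list with the most reads, and Icos (12 and 6 reads, log2 ratio -0.90, 95% CI -2.60 to 0.62), singled out after its values were seen, did not differ beyond counting error. Over these 4 genes the median was 0.82 on the log2 scale, or 1.99 with a filter on a mean of at least 10. Of the 10 genes in the B cell list 1 passed the limit, Cd79b with 22 and 36 reads (log2 ratio 0.81). In the list of NK and innate lymphoid cells the gene past the limit was Rora, with 272 and 78 reads (log2 ratio -1.71), which many cell types express. Gzmb and Prf1 of that list were at 0 in both libraries.

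Genes of the neutrophil list went both ways. Mpo, Elane, Camp and Ngp, which encode granule proteins, were at 0 in both libraries, and a count of 0 does not show absence. Of the 14 genes in the table, 5 passed the limit, 3 of them at least 2-fold higher in the limbus, against 1 in the cornea, with a median log2 ratio of 1.38. Lcn2, an iron-binding protein that epithelia also secrete, had 15 corneal and 268 limbal reads (log2 ratio 4.25), and Ltf, lactoferrin, had 959 and 2338 (log2 ratio 1.38). S100a8 had 13 and 45 reads (log2 ratio 1.89, 95% CI 0.97 to 2.90), and S100a9 had 850 and 745 (log2 ratio -0.09, 95% CI -0.24 to 0.05). Padi4 had 2607 and 350 reads (log2 ratio -2.80, 95% CI -2.97 to -2.64). The cell types that the reads of S100a9 and Padi4 came from were not tested.

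Of the mast cell list, Mcpt4 had 0 corneal and 139 limbal reads, and Tpsb2 had 0 and 101. Against a floor of 3 corneal reads they were 49.5-fold and 36.0-fold higher in the limbus, counting error aside. Kit, which is also made by melanocytes, was the gene of the list above 3 reads in both libraries, with 5165 and 2491 reads (log2 ratio -0.96, 95% CI -1.03 to -0.89). Of blood cells, Pf4 of platelets had 12 and 73 reads (log2 ratio 2.70), and 3 of the 4 genes above the limit were at least 2-fold higher in the limbus, with a median log2 ratio of 1.79. Alas2, the remaining gene, had 99 and 102 reads and did not differ beyond counting error (log2 ratio 0.14, 95% CI -0.27 to 0.55).

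The other factors and receptors of the colony stimulating factor axis varied in their ratios. Csf2ra, a receptor chain for granulocyte-macrophage colony stimulating factor, had 286 corneal and 444 limbal reads (log2 ratio 0.73, 95% CI 0.51 to 0.95), and Flt3l, the growth factor of dendritic cells, had 84 and 151 (log2 ratio 0.94, 95% CI 0.55 to 1.34). Both intervals lay above 0. Csf2rb, the β chain that pairs with Csf2ra, and Csf3r, the receptor of neutrophils, both singled out after their values were seen, had 3 and 109 reads (log2 ratio 5.28, 95% CI 3.69 to 7.58) and 1 and 56 reads (log2 ratio 5.90, 95% CI 3.37 to 11.2). Of the 9 genes of the list, 5 were above the limit and 2 of these at least 2-fold higher in the limbus, with a median log2 ratio of 0.94 that became 2.56 with a filter on a mean of at least 10 normalized reads in place of the limit.

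Ligands of the leukocyte integrins differed widely in their ratios. Icam1, the endothelial and epithelial ligand of CD11a and CD11b, had 32 corneal and 756 limbal reads, a log2 ratio of 4.66 (95% CI 4.15 to 5.22). Icam2, an endothelial ligand, had 0 and 88 reads, 31.4-fold higher in the limbus against a floor of 3 corneal reads, counting error aside. Jam3 had 26 and 160 reads (log2 ratio 2.72), whereas F11r, a tight junction protein, had 10451 and 9973 reads (log2 ratio 0.03, 95% CI -0.01 to 0.07). The list also held the integrin chains Itgb2 (log2 ratio 3.17) and Itgal (log2 ratio 2.86). With these chains it had 5 genes above the limit, 4 of them at least 2-fold higher in the limbus. The median log2 ratio of 2.86 was that of Itgal and not of a ligand. Icam1 and Icam2 moved with Pecam1 (6 and 831 reads), and the part of the vessels in their ratios was not tested.

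For comparison, the lists of the other cell types in both libraries spread widely about the leukocyte lists. Their median log2 ratios were -0.55 for corneal epithelium and -0.01 for keratocytes, 1.74 for Schwann cells, 2.52 for melanocytes and 8.46 for skeletal muscle, over 4 to 6 genes each. All 4 conjunctival genes above the limit were at least 2-fold higher in the limbus. The limit left 2 of the 6 blood vessel genes and 3 of the 4 lymphatic genes, since the others had 3 corneal reads or fewer, and no median is given for them. Summed over its 6 genes, the blood vessel list had 179.9 normalized corneal and 3088 normalized limbal reads. The limbus library thus held more reads of genes of several other cell types, and the medians of the pan-leukocyte and macrophage lists lay within the range of these. Leaving out Arhgdib, Ptpn6 and Cbr2, which had many more reads than most of their lists, an alternative chosen after seeing the data, gave medians of 2.96 for the pan-leukocyte list and 2.32 for the macrophage list.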

How the data were processed

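Pooled limbal rims and corneal buttons of mice were sequenced as stranded total RNA with paired-end reads, which the authors mapped to GRCm38 (mm10) in CLC Genomics Workbench. The authors deposited 1 table with, for each gene, a mean normalized signal over the libraries, and 17484 of its 40904 rows name no gene and stayed out of every total. The authors also deposited a log2 fold change of cornea over limbus and a score that is its standard error, and these were used only to choose reads, as described next. The columns of p-values and adjusted p-values hold the authors' own comparison and were not used.

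The means are averages of whole reads of 2 libraries divided by size factors, 1.034 (cornea) and 0.9674 (limbus). The mean allowed 1 pair of reads for 6143 genes. For 11299 genes it allowed several, and the pair was taken whose fold change and standard error, from a fitted shrinkage model, came nearest. For the 9 members both were met to within 0.000202 in sum, and the next pair missed by at least 0.0152. Reads are therefore derived values. The method was tested on simulated data. Accessions in the table did not belong to the gene beside them (2 of 18556 did), so genes were identified by symbol only.

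Ratios are limbus over cornea after division by the size factors, and their 95% intervals were derived from the exact Clopper-Pearson bounds on the share of limbal reads. Pairs of genes were compared by conditional exact intervals of the odds ratio, and levels per length by exact Poisson intervals. Genes above 3 reads in each library were counted at 2-fold and beyond counting error, and a library at 0 was set to a floor of 3 reads. Ratios to that floor do not include counting error. Positions are from GENCODE M21 on GRCm38, and promoters from RefSeq, with 8 of 9 members matched and GAGGAA searched on both strands. Older symbols were matched for 5 listed genes, and Ly6g and Hbb-bt had no row here. The text names all members, the 4 genes with the most normalized reads of each leukocyte, colony stimulating factor and integrin list, the 2 of each other list where given, markers fixed for each cell type, and partner genes, apart from listed genes that are not reported here. Members and lists were chosen with earlier results of these data known. Scaling to total reads, a trimmed mean of M-values, a pseudocount of 1, other filters and other fold limits were also run. Python 3.11.15 with scipy was used.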

Additional observations from a re-analysis of the deposited data

How the results depend on the processing

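No paired analysis was possible because the table holds 1 library per tissue and no value for a numbered sample, and leaving out a replicate could not be run for the same reason. Scaling to total reads added 0.21 to all log2 ratios, so that 58.9% of genes in place of 46.6% were on the limbal side, while a trimmed mean of M-values added 0.02. Under both, under a pseudocount of 1 and under a filter on a mean of at least 10, the count of members at least 2-fold higher in the limbus was 6 and the count 2-fold higher in the cornea was 0. At 1.5-fold 8 members passed and at 4-fold 4 did, and with no filter on low reads Cd207 passed too, for 7 at 2-fold. Shares of all genes past these fold limits were not worked out under the other settings, so the counts there have no background.

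By the mean alone, the direction of 5 members is not fixed. It rests on the pair chosen by the deposited fold change and its standard error, which that pair met to within 0.000202 in sum. The next pair missed by at least 0.0152. The lowest pair that the mean alone allowed gave log2 ratios of -3.07 for Csf1r, -4.95 for Cd68, -1.79 for Mrc1, -9.42 for Itgam and -5.64 for Lyz2. For Ptprc, Cd163, Itgax and Cd207 the mean allowed 1 pair. The median log2 ratio of the keratocyte list was 0.19 under total reads, and that of the Schwann cell list was 2.65 and that of the erythrocyte and platelet list 1.01 with no filter on low reads. Depth limits Cd207 and Cd163, with 2 and 7 reads in the cornea, and most genes of dendritic cells and lymphocytes.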
